A study of Mus musculus with 6 samples.

Results

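H3K9ac, the acetylation of lysine 9 on histone H3, was examined at 10 genes that encode histone acetyltransferases or the coactivators that bring them to chromatin: Kat2a, Kat2b, Kat5, Kat6a, Kat6b, Kat7, Ep300, Crebbp, Ncoa1 and Ncoa3. The members were all rows of the deposited peak table whose assigned gene was one of these, near a start or away from it. They came to 22 of 17901 peaks, and all 10 genes had at least 1, of 11191 genes with a peak. The mark was measured by CUT&RUN, in which a nuclease tethered to an antibody releases the DNA beneath it for sequencing, in endothelial cells isolated from the lungs of mice. There were 3 libraries labelled WT and Cre-neg and 3 labelled CSE-KO and Cre-pos. CSE is cystathionine gamma-lyase, the product of Cth, which makes cysteine from cystathionine. What drives Cre, the age and strain of the mice, any pooling and the purity of the cells were not stated in the labels. Nor did they say whether each library stands for its own animal. The p-values below thus reflect only how these libraries varied, possibly for technical reasons.

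Acetyltransferases move an acetyl group from acetyl-CoA to lysines of histone tails, so that their activity depends on the cell's acetyl-CoA supply. KAT2A and KAT2B, also called GCN5 and PCAF, work in the SAGA and ATAC complexes and are known for placing acetyl groups on lysine 9 of histone H3, the mark measured here. KAT5, KAT6A, KAT6B and KAT7 belong to the MYST family and act on lysines of histones H3 and H4. EP300 and CREBBP acetylate many histone sites at enhancers and promoters, and NCOA1 and NCOA3, of the p160 family, bridge ligand-bound nuclear receptors to them. What follows is the mark on the genes of these enzymes, not their activity or their RNA.

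The libraries held 313610 to 676056 counts over all peaks in WT and 679938 to 1173016 in CSE-KO, with no overlap. Depth therefore moved with the groups, and its part in the differences below was not tested. All 12 endothelial markers looked for had a peak, and their peaks summed to 2514 to 2737 CPM in WT and 2303 to 2604 CPM in CSE-KO, where CPM is the usual depth-scaled count, here after TMM scaling between libraries. Of other lung cells, 4 of 8 epithelial markers had a peak (268 to 300 CPM in WT and 255 to 303 in CSE-KO). These were Epcam, Cdh1, Krt8 and Scgb1a1, while Sftpc, Sftpb, Nkx2-1 and Foxj1 had none. For immune cells 1 of 9 markers, Csf1r, had a peak (16.4 to 38.7 and 21.2 to 23.4 CPM), and Ptprc had none. For fibroblasts and mural cells it was 1 of 8, Col1a1 (32.3 to 46.1 and 21.9 to 50.8 CPM), with Pdgfra, Pdgfrb and Acta2 among those lacking a peak. Cth had no peak assigned to it and none overlapping it, so that the mark does not check the labels. In a bulk library, fewer cells that carry a mark and less of the mark per cell cannot be told apart. Scaling between libraries sets the median change near 0, and a change shared by all peaks could not be seen.

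Each of the 10 genes had exactly 1 peak whose centre lay within 1 kb of an annotated start, and 6 of them had no other. Kat2b had 2 peaks, Kat6a 3, Kat6b 4 and Ncoa3 7. As many peaks as at Ncoa3, or more, were found at 1.07% of genes, and the median gene had 1. Not all of these assignments place a peak at the gene it is named for. Of the 4 Kat6b peaks, 3 lay 109693 to 187529 bp upstream, in introns 6, 7 and 9 of Adk, the gene of adenosine kinase, and Kat6b was only the nearest start. The peaks near the starts of Kat7, Kat6a and Ncoa3 also overlapped Gm11520, Gm46036 and LOC115489489, in that order. Their levels cannot be split between the overlapping genes.

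**Figure D1:**
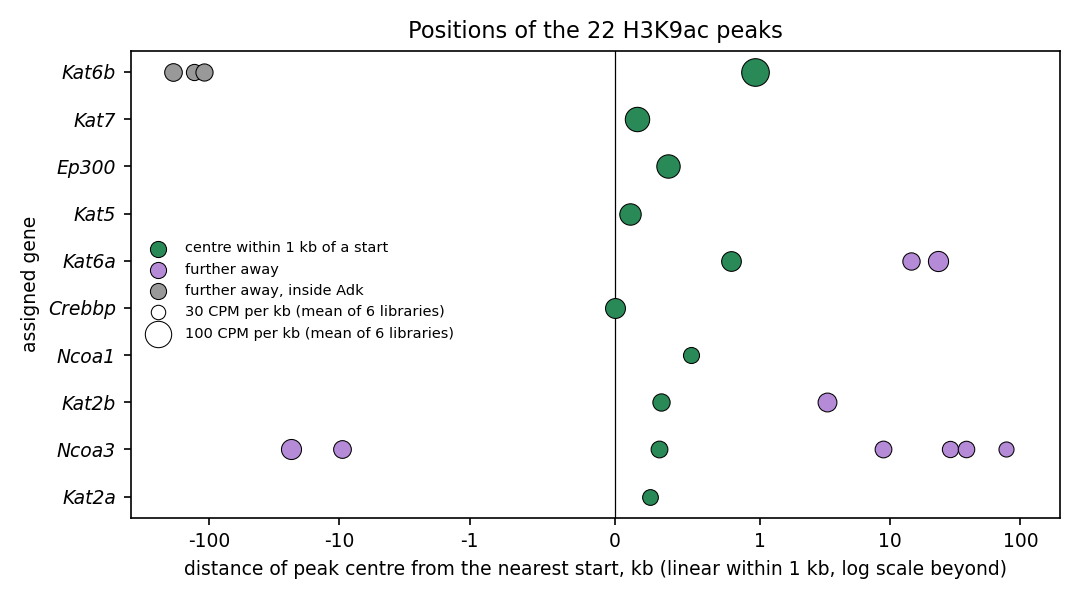
The horizontal axis gives the distance of each peak's centre from the start it was assigned to, in kb, and each row is a gene. Circle area follows the mean level in CPM per kb over the 6 libraries. Every gene has 1 peak beside its start, Ncoa3 has 6 further ones on both sides, and the 3 distant Kat6b peaks lie in Adk.

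The peak near the start did not cover the same part of each gene. Promoter windows from 250 bases before to 50 after a start were taken from RefSeq (GRCm38.p6) for 8 of the genes, and Kat6a and Ncoa3 had no entry. At Ep300, Crebbp, Kat7 and Kat5 the whole window lay under the peak. The Ep300 peak ran from 1011 bases before the start to 1744 after it, and the Crebbp peak from 988 before to 990 after. At Kat2b and Kat2a the peak began 1 and 25 bases past the start and held 16.3% and 8.33% of the window. For Kat2b this is the nearer of its 2 listed starts, and the peak covered none of the window at the other. At Ncoa1 and Kat6b it held none, and began 183 bases into the gene at Ncoa1 and 454 at Kat6b, counted from the nearer of the 2 listed Kat6b starts. Among 6304 genes with a window and a peak near the start, the window was wholly covered at 45.8% and not covered at 16.7%.

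**Figure D2:**
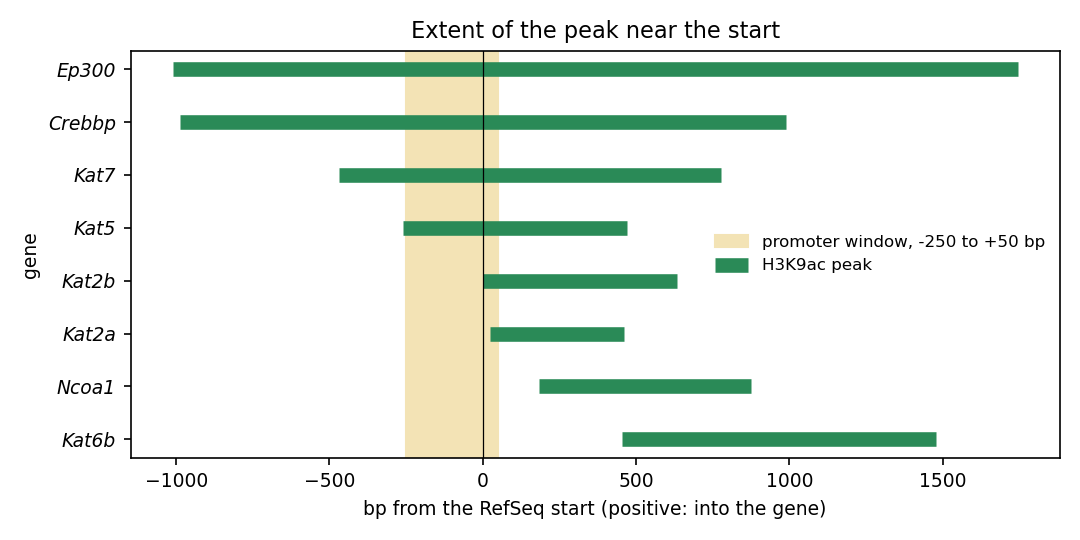
Green bars show the first and last base of the peak near the start of 8 genes, in bp from the RefSeq start, and the shaded band is the promoter window. The bars of Ep300, Crebbp, Kat7 and Kat5 span the band, while those of Ncoa1 and Kat6b begin to the right of it.

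The bases before the start are shown for a pair of genes with a covered window, Ep300 (chr15:81585964-81586208, plus strand) and Kat7 (chr11:95310247-95310496, minus strand), and a pair whose peak began inside the gene, Ncoa1 (chr12:4477207-4477432, minus strand) and Kat2a (chr11:100712486-100712717, minus strand). They are from RefSeq on GRCm38.p6, are written 5′ to 3′ on the strand of the gene, and end where its annotated span begins. The Kat7 stretch also overlaps Gm11520. Capitals mark matches on either strand to GGGCGG, the box bound by SP and KLF factors, and to CCAAT, the NF-Y box.
Ep300: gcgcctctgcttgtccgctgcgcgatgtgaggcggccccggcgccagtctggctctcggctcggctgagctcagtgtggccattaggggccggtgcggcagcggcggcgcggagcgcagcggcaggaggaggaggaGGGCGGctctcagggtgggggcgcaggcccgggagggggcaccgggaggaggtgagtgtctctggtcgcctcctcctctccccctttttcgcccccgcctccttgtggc
Kat7: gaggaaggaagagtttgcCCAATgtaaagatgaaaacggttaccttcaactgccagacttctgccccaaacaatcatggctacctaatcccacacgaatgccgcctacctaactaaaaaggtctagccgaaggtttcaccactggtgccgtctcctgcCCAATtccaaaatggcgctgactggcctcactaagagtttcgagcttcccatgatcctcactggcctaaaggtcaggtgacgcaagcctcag
Ncoa1: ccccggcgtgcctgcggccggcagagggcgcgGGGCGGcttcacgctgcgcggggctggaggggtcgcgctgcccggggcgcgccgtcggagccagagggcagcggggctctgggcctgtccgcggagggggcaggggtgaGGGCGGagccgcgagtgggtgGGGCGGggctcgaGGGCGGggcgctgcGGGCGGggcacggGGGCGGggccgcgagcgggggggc
Kat2a: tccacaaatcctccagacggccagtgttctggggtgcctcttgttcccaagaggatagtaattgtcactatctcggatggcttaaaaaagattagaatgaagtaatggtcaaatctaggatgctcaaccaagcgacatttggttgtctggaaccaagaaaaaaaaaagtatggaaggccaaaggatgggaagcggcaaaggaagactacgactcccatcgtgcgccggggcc

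The Ncoa1 stretch held 6 GGGCGG boxes, none of which overlapped another, between 218 and 43 bases before the start. Ep300 had 1 such box, 114 bases before the start, and Kat7 had 2 CCAAT boxes, 232 and 92 bases before it. No letters of the 7 motifs searched stood in the Kat2a stretch. The other motifs were TATAAA, the ETS site CCGGAAGT, the NRF1 core GCGCATGC, the CRE TGACGTCA and the CEBP-ATF element TGATGCAA. GGGCGG was found in 35.7%, CCAAT in 37.4% and the ETS site in 3.89% of all 32851 windows of the RefSeq table. The whole Kat7 window, which runs past the printed stretch, also held 1 ETS site, and a Kat5 window held 2. The GC content of the whole window was 84.7% at Ncoa1, 82.0% at Crebbp and 72.3% at Ep300, against 54.3% at Kat2a and 53.0% at Kat7, while the median over 8084 windows of genes with a peak near the start was 61.0%. The window richest in GC, at Ncoa1, thus lay outside its peak. The same held for the 2 Kat6b windows, with 78.3% and 79.3% GC and 8 GGGCGG boxes each, beside 7 in the whole Ncoa1 window. A match of letters is a description and does not show binding.

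Levels differed widely between the genes. Divided by the width of the peak, the mark near the start was highest at Kat6b, with 111 ± 41.7 CPM per kb in WT (SD, n = 3 libraries, as for all SD below), at the 96.0th percentile of 8021 peaks near a start over the 6 libraries. Kat7 followed with 92.4 ± 13.5 and Ep300 with 82.6 ± 19.1 CPM per kb. Kat5 had 66.6 ± 19.5, Kat6a 58.5 ± 9.97 and Crebbp 54.9 ± 8.87, around the median of 58.8 CPM per kb of all peaks near a start. Ncoa1, Kat2b, Ncoa3 and Kat2a stood lowest, at 51.1 ± 26.0, 46.2 ± 11.6, 40.2 ± 11.4 and 30.9 ± 9.17 CPM per kb. Over the 6 libraries Kat2a was at the 6.48th percentile, Ncoa1 at the 8.57th, Ncoa3 at the 13.7th and Kat2b at the 18.4th. By the peak near the start alone, Kat2a and Kat2b were therefore among the 4 of the 10 with the least mark per kb. The other Kat2b peak, 3284 bp from another start, held 44.0 ± 13.8 CPM per kb in WT and 58.1 ± 2.19 in CSE-KO. Each pair of neighbours in the WT order overlapped in the range of their 3 WT libraries. Compared within libraries, Kat7 was above Ep300, and Ep300 above Kat5, in each of the 3 WT libraries and in 5 of all 6, while no other neighbours kept their order in all 3 WT libraries. The first 4 places were the same in CSE-KO, and Ncoa1 went from place 7 to place 10.

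**Figure D3:**
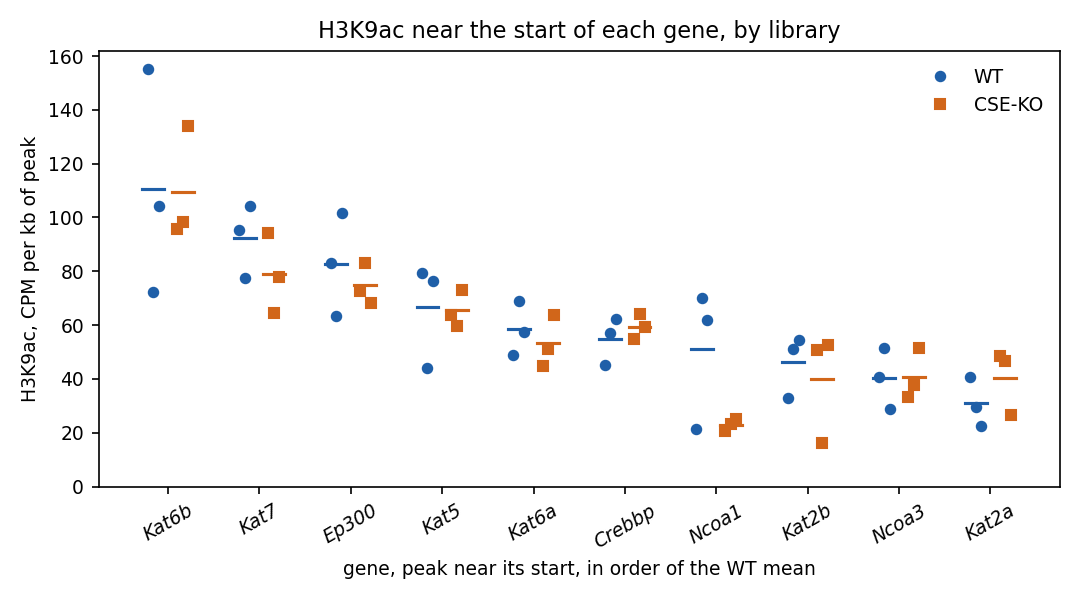
Each point is 1 library and each short line the mean of 3, in CPM per kb of the peak near the start, with WT as circles and CSE-KO as squares. The genes run from Kat6b at the left to Kat2a at the right, and the groups overlap at every gene.

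No peak of the 10 genes passed the test between CSE-KO and WT. Of the 22 peaks, 18 had counts high enough to be tested, and 0 passed an adjusted p of 0.05 in the quasi-likelihood test of edgeR, with adjusted p between 0.64 and 0.99. Of all 16134 tested peaks 14 passed, or 0.0868%, and beside so low a share a count of 0 among 18 is not a result about these genes. At an unadjusted p under 0.05 there was 1 peak, at Ncoa1, where the share over all tested peaks was 7.08%. With DESeq2, 0 passed and Ncoa1 alone had an unadjusted p under 0.05, and with limma's voom 0 did either. With 1 library left out 19 or 20 of the 22 peaks passed the filter on low counts, and this unadjusted count ran from 0 to 3. It was 0 without WT replicate 2 or CSE-KO replicate 1. It was 3, at Ncoa1, Ncoa3 and a Kat6b peak in Adk, without WT replicate 1. Without WT replicate 3 it was 1, not at Ncoa1 but at the Kat6a peak 14520 bp from the start, which is not among the 18. None of the 18 had groups that did not overlap in CPM, which 13.0% of all tested peaks had. The log2 fold change was below 0 at 8 and above 0 at 10 of the tested peaks, with a median of 0.06, beside a median of -0.00034 and 50.1% below 0 over all tested peaks. Of the 10 peaks near a start 7 were below 0, and of the 8 tested peaks further away 7 were above 0, against 53.0% below 0 near starts and 47.3% below 0 away from them over the table. These are counts of values that did not pass, and the 4 untested peaks are not in them. The sign turned at 10 of the 18 when 1 library was left out.

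Ncoa1, the gene of the p160 coactivator SRC-1, had the lowest log2 fold change of the group. Its peak lies in intron 1 of 22 (chr12:4476308-4476999), with 14.9, 48.4 and 42.8 CPM in WT replicates 1 to 3 and 14.4, 16.1 and 17.4 CPM in CSE-KO replicates 1 to 3. WT replicate 1 lay among the CSE-KO libraries, and the other WT libraries were above all of them. The log2 fold change was -1.08 (SE 0.44, 95% interval -1.96 to -0.20), with an adjusted p = 0.64 over all peaks (edgeR). These values rest on 10 to 26 counts per library, and leaving out WT replicate 1 gave -1.51 (adjusted p = 0.30, edgeR). Without WT replicate 2 or 3 the log2 fold change was -0.85 or -0.84.

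Ncoa3 encodes another p160 coactivator, and whether it differed from Ncoa1 was not tested. The peak near the Ncoa3 start (chr2:165992280-165993598, intron 1 of 22) had 53.5, 67.8 and 37.9 CPM in WT and 44.0, 49.6 and 68.0 in CSE-KO, with a log2 fold change of 0.05 (SE 0.29). A peak of similar size lay 23638 bp upstream in intergenic DNA (chr2:165968377-165969622), with 69.9, 61.3 and 72.4 CPM in WT and 79.6, 78.8 and 70.9 in CSE-KO. That upstream peak held 54.5 ± 4.66 CPM per kb in WT, against 40.2 ± 11.4 at the start. Its log2 fold change was 0.16 (SE 0.24). The remaining 5 Ncoa3 peaks lay 9643 bp upstream and 8803, 28958, 38405 and 77405 bp downstream of the start, 4 of them in introns 1 and 22. The 3 of these that were tested had log2 fold changes of 0.16 to 0.28 with SE of 0.34 to 0.53, and the others, at 8803 and 77405 bp, had 1 to 16 counts per library. Summed over its 7 peaks, Ncoa3 had 257, 203 and 185 CPM in WT and 259, 234 and 240 in CSE-KO, a difference of 0.17 on the log2 scale (SE 0.14), with adjusted p = 0.87 in edgeR.

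At Ep300, the gene of the acetyltransferase EP300, the peak over the start was the most abundant of the 22 and among the widest of its kind. It spans 2756 bp (chr15:81585203-81587958, annotated to exon 1 of 31), and 0.486% of peaks near a start were as wide or wider. WT replicates 1 to 3 had 229, 174 and 280 CPM and CSE-KO replicates 201, 229 and 188 CPM, so that all CSE-KO libraries lay within the WT range. The log2 fold change was -0.18 (SE 0.15, 95% interval -0.49 to 0.13), and its interval, the narrowest of the group, holds folds from 0.713 to 1.10. Without WT replicate 3 the log2 fold change was -0.0085. Crebbp, the gene of the related acetyltransferase CBP, had 89.2, 113 and 123 CPM in WT and 108, 127 and 117 in CSE-KO at its promoter (chr16:4212414-4214392). Its log2 fold change of 0.12 (SE 0.20, 95% interval -0.27 to 0.51) had the opposite sign to that of Ep300, with overlapping groups at both. Over the 6 libraries, the genes whose most abundant peak was most like that of Ep300 were Blvrb, Baz2b and Abcc5, with a Pearson r of log2 CPM of 0.982, 0.980 and 0.980 among 10539 genes. With 6 points and that many genes compared, this is a description only.

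Among the MYST family genes, Kat7 had 119, 96.9 and 130 CPM in WT and 118, 80.3 and 96.9 in CSE-KO at its promoter (chr11:95309469-95310715). KAT7, also called HBO1, acetylates H3 and H4 with BRPF and JADE partners. The log2 fold change was -0.23 (SE 0.20, 95% interval -0.64 to 0.17), with overlapping groups. Kat5, the gene of TIP60, had 57.98, 32.3 and 56.0 CPM in WT and 46.6, 43.8 and 53.5 in CSE-KO at its promoter (chr19:5609624-5610355). WT replicate 2 was the lowest of the 6 and WT replicate 1 the highest, and the log2 fold change was -0.09 (SE 0.29).

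Kat6a and Kat6b encode the paralogs MOZ and MORF. The Kat6a peak in intron 1 of 16 (chr8:22859575-22861120) had 75.8, 107 and 88.9 CPM in WT and 69.4, 78.8 and 98.4 in CSE-KO, a log2 fold change of -0.12 (SE 0.23). At Kat6b the peak in intron 1 of 16 (chr14:21500239-21501264) had 159, 74.3 and 107 CPM in WT and 98.2, 101 and 137 in CSE-KO, a log2 fold change of -0.09 (SE 0.21). The groups overlapped at both genes, and the authors annotated both peaks as CpG islands. An intron 3 peak of Kat6a 14520 bp from the start (chr8:22873923-22874209) had 14.9, 29.1 and 8.23 CPM in WT and 7.62, 7.30 and 7.23 in CSE-KO. Of the 22 peaks it was the only 1 whose groups did not overlap, where the share over all tested peaks was 13.0%. It rests on 5 to 10 counts per library and was removed by the filter on low counts. Fitted without that filter it had a log2 fold change of -1.09 (adjusted p = 0.71, edgeR). The next Kat6a peak, 23303 bp from the start in the same intron, had 17.8 to 28.0 CPM in WT and 17.4 to 32.1 in CSE-KO. In Adk, the tested peaks 130830 and 109693 bp upstream of Kat6b had log2 fold changes of 0.38 (SE 0.41) and -0.58 (SE 0.43).

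The peaks near the starts of Kat2a and Kat2b had little mark and wide intervals. The Kat2a peak in exon 1 of 18 (chr11:100712005-100712442) had 17.8, 12.9 and 9.88 CPM in WT and 21.2, 20.4 and 11.6 in CSE-KO, from 4 to 25 counts per library. Its log2 fold change was 0.39 (SE 0.50), and the 95% interval of -0.61 to 1.39 spans 0 and holds folds from 0.653 to 2.63. Kat2b had a peak in exon 1 of 17 (chr17:53566972-53567604) and another in intron 1, 3284 bp from a second start (chr17:53586970-53587851). The exon 1 peak had 20.8, 32.3 and 34.6 CPM in WT and 32.2, 10.2 and 33.3 in CSE-KO, where CSE-KO replicate 2 stood alone below the rest. The intron 1 peak, at the 48.4th percentile of all peaks in CPM per kb, had 26.8, 38.7 and 51.0 CPM in WT and 53.4, 49.6 and 50.6 in CSE-KO, where WT replicate 3 alone reached the CSE-KO libraries. Their log2 fold changes were -0.15 (SE 0.41) and 0.41 (SE 0.31), and their sum gave 0.21 (SE 0.25), with adjusted p = 0.93 in edgeR.

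**Figure D4:**
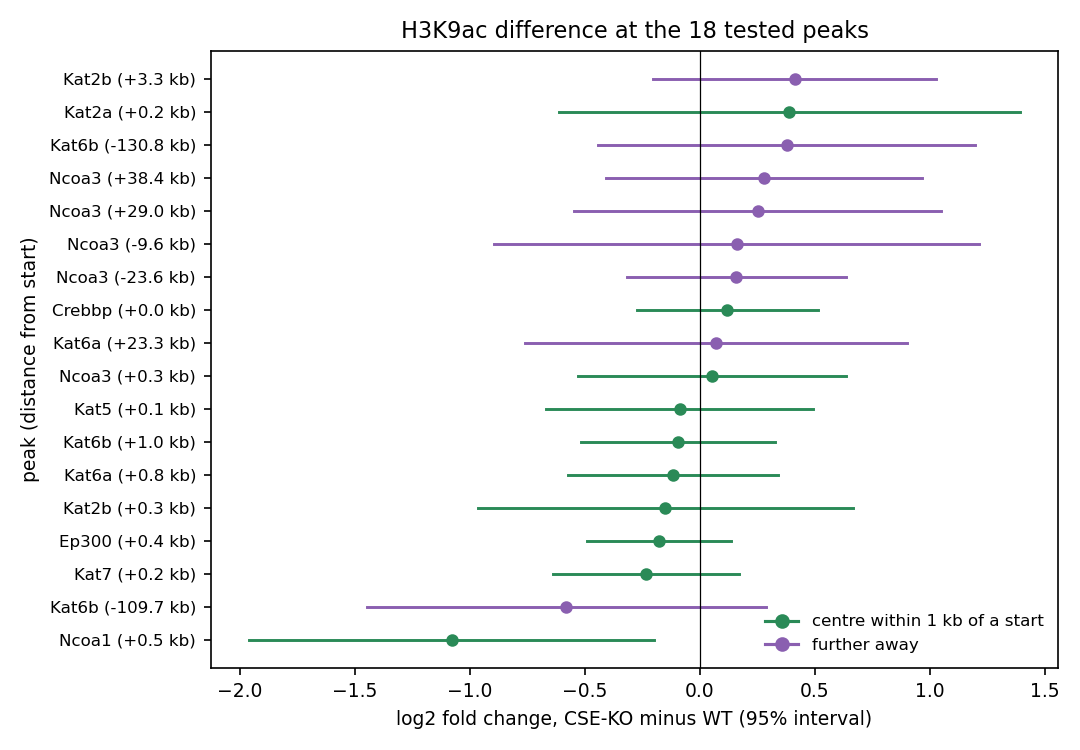
Points give the log2 fold change of CSE-KO minus WT at each of the 18 tested peaks and bars its 95% interval, labelled with the gene and the distance from its start in kb. Only the bar of Ncoa1 lies wholly below 0, and its adjusted p was 0.64.

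Summing all peaks of a gene gave the same picture. Of the 10 gene sums 0 passed (edgeR), beside 13 of 10569 tested genes, or 0.123%, and 1, Ncoa1, had an unadjusted p under 0.05, beside 6.86%. No member's sums separated the groups, which 12.5% of all tested genes did. The sums lay below 0 at 6 and above 0 at 4 genes, with a median log2 fold change of -0.10 beside -0.0043 over all tested genes. For Ep300, Kat7, Crebbp, Kat6a, Kat6b and Ncoa3 the 95% intervals of the sums lay between folds of 0.649 and 1.43. They ran from 0.633 to 1.42 at Kat5, 0.816 to 1.63 at Kat2b and 0.665 to 2.61 at Kat2a. At Ncoa1, which did not pass, the interval was 0.260 to 0.874. Kat6b had -0.13 over its 4 peaks and -0.09 without the 3 that lie in Adk, a step chosen after seeing the data. The 22 peaks together held 0.104% to 0.122% of all counts in WT libraries and 0.109% to 0.115% in CSE-KO libraries. Their peaks near a start took 71.9% to 73.9% of these counts in WT and 68.3% to 72.2% in CSE-KO, ranges that overlap, where over all peaks the share was 59.47% to 59.998%.

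**Figure D5:**
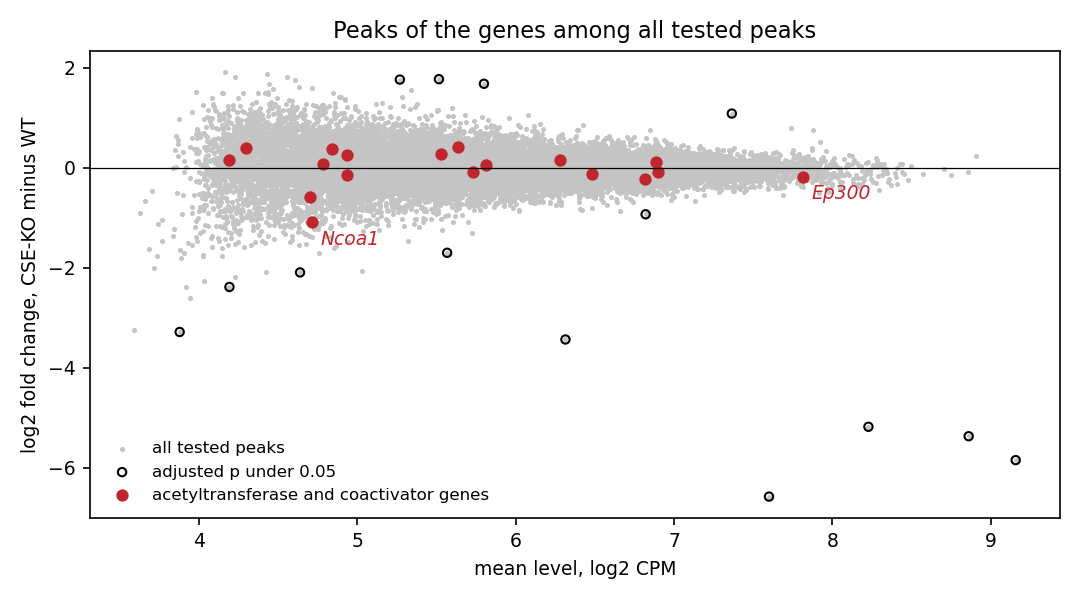
Each dot is a tested peak, with its mean level in log2 CPM on the horizontal axis and the log2 fold change of CSE-KO minus WT on the vertical axis. The 18 peaks of the acetyltransferase and coactivator genes, in red, lie within the cloud of all tested peaks, and none is among the 14 circled peaks with an adjusted p under 0.05.

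None of the listed partners of these enzymes passed the test either, each judged by its most abundant tested peak. Over all tested peaks 0.0868% were called and 7.08% had an unadjusted p under 0.05 (edgeR). Counts in lists this small are not a result about the partners. Of 22 SAGA and ATAC subunits, 19 were tested, with 10 below 0 and 9 above 0, a median log2 fold change of -0.06, 0 called and 1 at an unadjusted p under 0.05. That was Atxn7, the ataxin-7 anchor of the SAGA deubiquitinase, with 86.2, 29.1 and 69.1 CPM in WT and 97.4, 94.9 and 86.8 in CSE-KO, which is 0.50 on the log2 scale (SE 0.25; adjusted p = 0.70 by edgeR). The groups did not overlap at 2 of the 19, Atxn7 and Dr1, beside 13.0% of all tested peaks. Dr1 had 0.28 (SE 0.17) and Eny2, a small SAGA subunit, -0.20 (SE 0.18).

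Of 15 partners of KAT5 in the TIP60 complex, 12 were tested, with 5 below 0, a median of 0.10, 0 called and 2 at an unadjusted p under 0.05, both higher in CSE-KO. Ep400, the ATPase of the complex, had 92.2, 80.7 and 56.0 CPM in WT and 114, 117 and 103 in CSE-KO, which is 0.55 on the log2 scale (SE 0.22; adjusted p = 0.63 by edgeR). Dmap1 had 37.2, 32.3 and 49.4 CPM in WT and 74.5, 58.4 and 50.6 in CSE-KO (0.62, SE 0.29, edgeR adjusted p = 0.68). At both of these, and at no other of the 12, the groups did not overlap, beside 13.0% of all tested peaks. Yeats4, a reader of acetylated histones, was at -0.65 (SE 0.35).

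BRPF and JADE scaffolds and their ING partners, which work with KAT6A, KAT6B and KAT7, had 6 of 9 genes tested, a median of -0.09 and 0 called or at an unadjusted p under 0.05 (edgeR). Brpf1 was at -0.24 (SE 0.16), Ing4 at -0.68 (SE 0.48) and Ing5 at 0.52 (SE 0.42). Of 11 partners of EP300, CREBBP and the p160 proteins, 9 were tested, with a median of 0.11, 0 called and 1 at an unadjusted p under 0.05. This was an intergenic peak 32536 bp upstream of Ncoa6, a nuclear receptor coactivator, with 89.2, 71.0 and 107 CPM in WT and 65.2, 58.4 and 72.3 in CSE-KO (-0.48, SE 0.23, edgeR adjusted p = 0.69). Crtc2, a CREB coactivator, was at 0.39 (SE 0.23), and Carm1, the arginine methyltransferase that acts with p160 proteins, at 0.19 (SE 0.17). The groups did not overlap at 3 of the 9, beside 13.0% of all tested peaks. At Crtc2 and Carm1 the CSE-KO libraries were the higher ones, and the other gene was not among the 3 with the smallest unadjusted p. Among 10 genes of other acetyltransferases and the complexes of KAT8, 9 were tested, with a median of 0.04 and 0 called or at an unadjusted p under 0.05 (edgeR). Kansl3, Kansl2 and Kansl1, subunits of the KAT8 complex NSL, were at -0.33 (SE 0.29), 0.20 (SE 0.20) and -0.16 (SE 0.16).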

How the data were processed

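The authors deposited 1 table of peaks, whose whole-number columns hold raw counts per peak and library. Tools listed, per the submitters' processing notes, were STAR 2.7.11a, Trimmomatic 0.39, featureCounts, DESeq2 1.36.0 and Picard 3.1.1, with neither order nor settings, and no peak caller was among them. The table held 17901 peaks, 75.0% of the highest peak number, so some had been removed before deposit. Another 12 columns of normalised values per library were not used, and per the file headers their names differ by a numeric prefix between WT and CSE-KO, so that a batch following the groups cannot be told apart. The notes name mm39, but starts implied by the deposited distances lay within 100 bp of a RefSeq gene end on GRCm38.p6 for 66.8% of 17637 peaks, and coordinates are printed as deposited, on GRCm38.

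Counts of all peaks were tested with edgeR 4.0.16 in R 4.3.3: TMM factors, a filterByExpr minimum of 10 counts, then glmQLFit with glmQLFTest, group as the only term, two-sided, Benjamini-Hochberg over all tested peaks, threshold 0.05. SE and 95% intervals come from the F statistic. Gene sums were tested likewise over all genes. The 17 peaks with no gene name, 0.0701% of counts, were left out of the sums. The edgeR fit was tested on simulated counts, for peaks and for gene sums. Changes were placed only at mean counts above those of the Kat2a and Ncoa1 peaks, so it does not cover peaks that small. No 2 libraries of a group agreed within sampling noise (their chi-square was 1.85 to 2.14 times its degrees of freedom), and all were kept as replicates. Alternatives were RLE factors, library size alone, the Wald test of DESeq2 1.42.0, voom (limma 3.58.1), a filter at mean count 50, no filter, a replicate block and each library left out.

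Named genes are all members, Cth, and of each partner list the up to 3 genes with the smallest unadjusted p at their most abundant tested peak, plus the 3 genes most like Ep300. The members and lists were chosen with earlier results of these data known.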

Additional observations from a re-analysis of the deposited data

How the results depend on the processing

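No member peak and no member gene sum was called under any alternative run, and the lowest adjusted p over all of them was 0.30, at Ncoa1 without WT replicate 1. The Ncoa1 peak stayed below 0 wherever it was tested, from -1.51 to -0.83, and was not tested at a mean count of 50 or more. Of all peaks, the 14 called became 7 with DESeq2 and 8 at a mean count of 50 or more, and 6 to 13 with 1 library left out (7 without WT replicate 3, and 6 or 8 when CSE-KO replicate 1 or 3 was left out). The 13 called gene sums became 5 with DESeq2 and 8 at a mean count of 50 or more, and 5 to 9 with 1 library left out, where leaving out any but WT replicate 2 gave 8 or fewer. The replicate block gave 15 called peaks and 17 called gene sums, with 0 members. Deviations of same-numbered libraries correlated at 0.0051 to 0.065, and those of other pairs at -0.036 to 0.019. With 3 libraries per group these values cannot decide whether the numbers pair the samples. Depth limits the small peaks most: Kat2a rests on 4 to 25 counts per library.

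Of 549 values for 43 peaks and sums, 20 turned sign, in 14 of the 43, all with 1 library left out. With each library left out in turn, the log2 fold change ran from -0.029 to 0.25 at the Crebbp peak, from -0.25 to 0.042 at Kat5, from -0.39 to 0.19 at the Kat2b exon 1 peak, from -0.26 to 0.0094 at the Kat6a start, from -0.14 to 0.25 at the Kat6a peak 23303 bp away and from -0.27 to 0.24 at the Kat6b start. At Ncoa3 it ran from -0.16 to 0.21 near the start, from -0.14 to 0.84 at 9643 bp upstream, from -0.14 to 0.52 at 28958 bp and from -0.16 to 0.85 at 38405 bp downstream. At Kansl2 it ran from -0.075 to 0.40, and for the sums of Kat2b, Kat5 and Crebbp from -0.037 to 0.46, from -0.24 to 0.051 and from -0.020 to 0.26. Other values kept their sign but moved by over 1.5 times, as at Ing4 (-1.52 to -0.32), Brpf1 (-0.41 to -0.083), Atxn7 (0.26 to 0.80), Eny2 (-0.33 to -0.039), Kansl1 (-0.28 to -0.0020), Kansl3 (-0.57 to -0.14), Kat2a (0.17 to 0.70), the Kat2b intron 1 peak (0.15 to 0.71), Kat7 (-0.40 to -0.11) and Ep300 (-0.30 to -0.0085). The cause was not tested.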
